A study of Homo sapiens with 2 samples.

Results

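TIMP2, TIMP3, TFPI2, LOXL1 and VEGFA are the genes of matrix protease inhibitors and of other proteins that act in the extracellular matrix on a 96-well qPCR array of prostate cancer (CaP) genes. They were chosen by name and make up 5 of the 84 genes on the array, beside which it carried 5 reference genes. RNA came from LNCaP cells, an established human CaP line, with 1 sample of control cells and 1 of BMI1-silenced cells. The sample labels name siRNA as the silencing agent, while the methods describe transient transfection with a short hairpin RNA plasmid, so that some cells of the silenced sample may have stayed untransfected. The labels give no time after transfection and do not say what the control cells received. Each sample was a mix of equal amounts of RNA of its group, 1 microgram was reverse transcribed, and SYBR Green PCR ran for 45 cycles. With 1 sample per group there is no replicate, and no test was made. In a bulk sample, fewer cells that express a gene and less RNA per cell cannot be told apart.

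The extracellular matrix is held in balance by proteases that cut it, inhibitors that block these proteases, and enzymes that crosslink its fibres. TIMP2 and TIMP3 belong to the tissue inhibitors of metalloproteinases. TIMP2 is soluble and also takes part in the activation of pro-MMP2 at the cell surface, whereas TIMP3 is bound to the matrix. TFPI2 is a Kunitz-type inhibitor of serine proteases such as plasmin. LOXL1 oxidises lysine residues of elastin and collagen, the first step of their crosslinking. VEGFA is the ligand that drives the growth of blood vessels through receptors on endothelial cells. The promoters of TIMP3 and TFPI2 are known to be methylated and silent in several types of cancer. BMI1, a Polycomb group protein, belongs to a complex that represses transcription through chromatin.

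The RefSeq promoter table (GRCh38.p14) held entries for TIMP3, TFPI2 and LOXL1. The 250 bases before each transcription start are shown because TIMP3 stood apart from the other 2 genes in the expression data, with each CG dinucleotide in capitals. They lie at chr22:32801455-32801704 on the plus strand for TIMP3, chr7:93890754-93891003 on the minus strand for TFPI2, and chr15:73926212-73926461 on the plus strand for LOXL1.
TIMP3: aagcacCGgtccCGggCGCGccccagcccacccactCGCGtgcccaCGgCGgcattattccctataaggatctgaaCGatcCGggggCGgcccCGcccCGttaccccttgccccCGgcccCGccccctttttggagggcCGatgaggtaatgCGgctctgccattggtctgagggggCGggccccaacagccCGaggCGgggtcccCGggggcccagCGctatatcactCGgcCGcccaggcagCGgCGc
TFPI2: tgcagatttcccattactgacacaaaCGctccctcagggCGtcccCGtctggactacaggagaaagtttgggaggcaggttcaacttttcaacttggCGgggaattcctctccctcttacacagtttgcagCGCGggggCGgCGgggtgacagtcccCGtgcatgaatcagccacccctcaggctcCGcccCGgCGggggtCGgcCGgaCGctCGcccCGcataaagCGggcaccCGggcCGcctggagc
LOXL1: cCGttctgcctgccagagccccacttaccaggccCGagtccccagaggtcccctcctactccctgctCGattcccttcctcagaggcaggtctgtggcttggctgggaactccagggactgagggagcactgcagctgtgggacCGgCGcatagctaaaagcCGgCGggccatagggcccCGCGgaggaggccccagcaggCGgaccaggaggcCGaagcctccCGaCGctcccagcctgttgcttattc
The TIMP3 stretch held 26 CG dinucleotides, that of TFPI2 held 20 and that of LOXL1 held 13, against a median of 11 over the 35116 stretches of the same length in the table. At least 26 were found in 19.6% of these stretches, at least 20 in 32.4% and at least 13 in 46.6%. GGGCGG, the letters of a GC box, was present on either strand 5 times before TIMP3 and 2 times before TFPI2, and these letters were not in the window of LOXL1. Any copy of it was found in 42.6% of all stretches, and the share with as many copies as TIMP3 or TFPI2 was not computed. TATAAA was in none of the 3 windows and in 10.7% of all stretches. GC content was 72.4% for TIMP3, 64.4% for TFPI2 and 66.8% for LOXL1, with a median of 58% over all stretches. The array measured RNA alone, so methylation and the binding of any factor at these sequences were not measured.

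Before the results, a conflict between the deposited tables has to be stated, because every direction rests on it. Ct, the threshold cycle, counts the PCR cycles a well needs to reach a fixed fluorescence, and a lower Ct stands for more template. The normalized value is 2 to the power of minus Delta Ct, that is, the amount of a gene against a reference Ct of the same sample. Once the raw columns were exchanged, raw Ct and normalized values matched in 76 wells out of 96, and most of the other wells had a Ct above the ceiling of 32, whereas as named they matched in 0 wells. Directions below follow the normalized table, in which the header of the fold change table takes SAMPLE 1 as control and SAMPLE 2 as test. Had the raw columns been taken as named, each of the 5 genes would have changed in the opposite direction. The array had no assay for BMI1, so which column holds RNA of silenced cells cannot be told apart from these tables.

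In the normalized values, taken relative to the mean of ACTB, B2M, GAPDH, HPRT1 and RPLP0, TIMP3 alone of the 5 genes was past 2-fold. TIMP3 was higher in BMI1-silenced LNCaP cells, and the other 4 genes were within 2-fold. On this scale TIMP3 was 393-fold higher, TFPI2 1.58-fold higher, VEGFA 1.25-fold higher, LOXL1 1.14-fold higher and TIMP2 1.24-fold lower. Thus 1 of 5 genes was at least 2-fold higher, while 34.9% of the 83 genes that could be counted on the array were. None of the 5 was at least 2-fold lower, while 19.3% of the 83 were. The median log2 change of the 5 genes was 0.33, and that of the 83 was 0.20. The spread of the 5 reference genes about their mean was 0.47 (SD of log2 changes, n = 5 genes), which describes genes and not cultures. From raw Ct with the columns exchanged and a ceiling of 32, TIMP3 was at least 20.9-fold and VEGFA 5.01-fold higher. In that setting 2 of the 5 genes were at least 2-fold higher, while 31 of the 83 were.

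**Figure D1:**
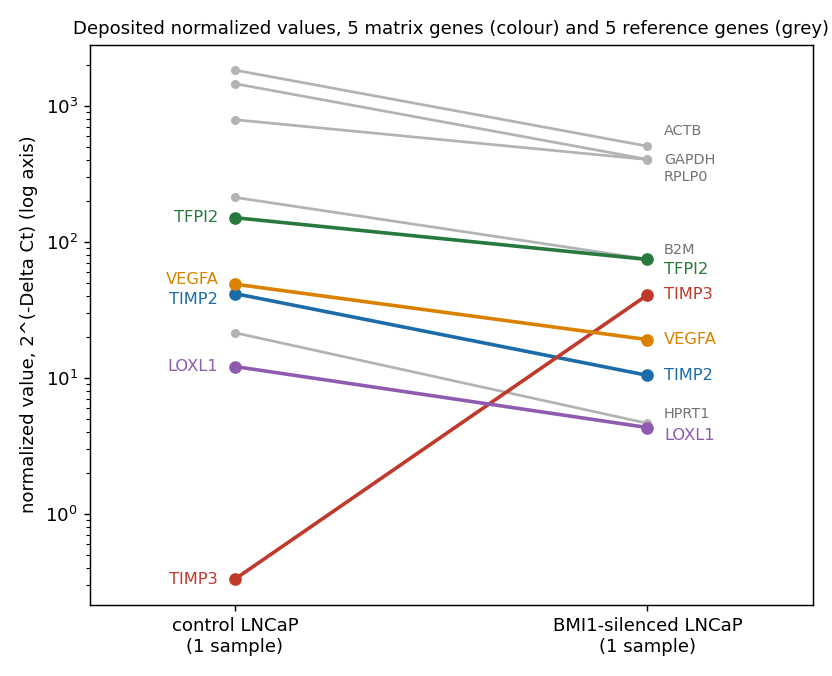
Deposited normalized value (log axis) of the 5 matrix genes (colour) and the 5 reference genes (grey) in the control and the BMI1-silenced sample, 1 sample each, each line joining the values of 1 gene. TIMP3 goes from 0.334 to 40.9 while the lines of the other genes run downward, and heights are not to be compared between genes, since each has its own assay.

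In control cells the normalized value of TIMP3 was 0.334, and in BMI1-silenced cells it was 40.9. The control value was low, equal to a Ct of 29.2, and the silenced value was high, equal to a Ct of 22.0. The log2 change relative to the reference genes was 8.62, and no other gene among the 83 had a higher one as computed. For 8 genes at the ceiling in control cells the computed change is a lower bound. In the exchanged raw Ct values without a ceiling, none of these 8 genes stood above TIMP3, which was at 9.62. The nearest neighbour of TIMP3 on the array was CDKN2A, which codes for the cell cycle inhibitor p16, at 7.60. Both the rank and the neighbour are those of the normalized table, in which CDKN2A also departs from the raw Ct values. With exchanged raw values CDKN2A stood at 5.60, and TIMP3 was at rank 5 as computed at its bound under a ceiling of 32 and at rank 1 under a ceiling of 35 or none.

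The raw table did not hold these Ct values for TIMP3. Its raw Ct was 29.0 under the name of control and 37.2 under that of BMI1-silenced cells. With the columns exchanged, the Ct behind the normalized value was lower than the raw Ct by 8 cycles in control and by 7 cycles in BMI1-silenced cells. A raw Ct of 37.2 lies 5.23 cycles beyond the ceiling of Ct 32 that had been applied to late wells in the normalized table. Put through that ceiling, the raw values with the columns exchanged gave TIMP3 a log2 change of at least 4.39, or at least 20.9-fold higher. Without a ceiling they gave 9.62, or 785-fold higher. The size of the change of TIMP3 is therefore not fixed by the tables, while its place past 2-fold was kept in each of these settings.

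TIMP2, the soluble relative of TIMP3, went from a normalized value of 41.8 in control to 10.5 in BMI1-silenced cells. As deposited this was 3.99-fold lower, a log2 change of -2.00. The 5 reference genes were lower as well in the same table, with a mean log2 change of -1.68, and relative to them TIMP2 stood at -0.32. TIMP2 thus stood slightly below the reference genes, and its distance from them was smaller than their spread of 0.47.

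The normalized value of TFPI2 was 151 in control and 74.5 in silenced cells. As deposited the log2 change was -1.02, or 2.03-fold lower, and relative to the reference genes it was 0.66. The 2 scales differ in sign because TFPI2 was lower by less than the reference genes were. Its change relative to them was larger than their SD of 0.47 but lay inside their range, which ran from -0.53 for HPRT1 to 0.71 for GAPDH, and with GAPDH alone as the reference it was -0.047.

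For LOXL1 the normalized value went from 12.2 in control to 4.34 in silenced cells. As deposited the log2 change was -1.49, or 2.81-fold lower, and relative to the reference genes it was 0.19, within their spread. For TIMP2, TFPI2 and LOXL1 the exchanged raw Ct values equalled those behind the normalized values within 0.001 cycles, so that both tables gave these 3 genes the same change.

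The normalized value of VEGFA went from 49.0 in control to 19.2 in silenced cells. As deposited the log2 change was -1.35, or 2.56-fold lower, and relative to the reference genes it was 0.33. The Ct behind the control value was lower by 2 cycles than the raw Ct of 24.0 in the exchanged column, and that of the silenced sample matched the raw Ct of 23.1. From the raw values with the columns exchanged, VEGFA was 5.01-fold higher, a log2 change of 2.33. VEGFA was hence within 2-fold in the normalized table and past it in the raw table, and the tables do not settle which holds.

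**Figure D2:**
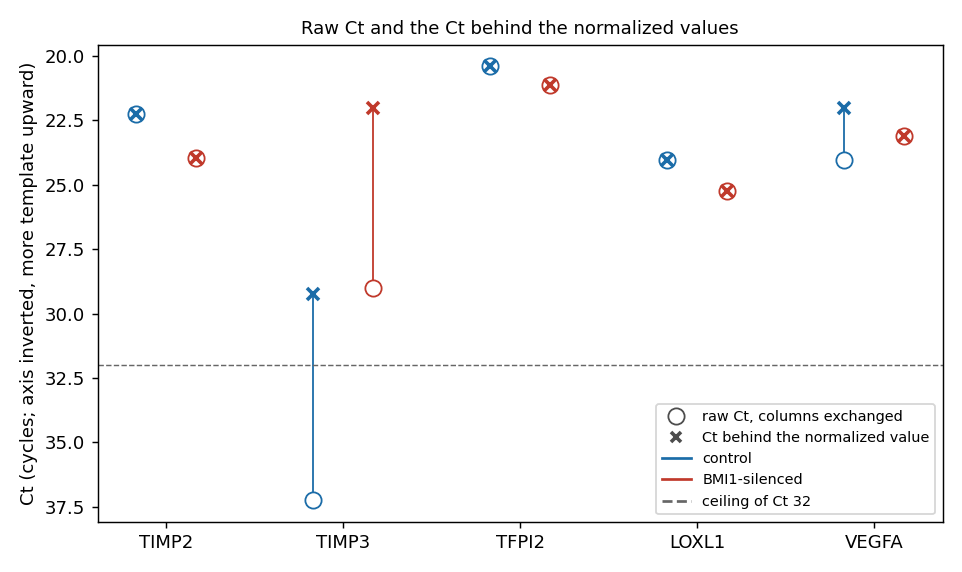
Ct of the 5 genes in control (blue) and BMI1-silenced (red) samples, with the axis inverted, raw Ct with the columns exchanged (open circles) and the Ct behind the deposited normalized value (crosses), joined by a line. Circles and crosses fall together for TIMP2, TFPI2 and LOXL1, and lie apart by 8 and 7 cycles for TIMP3 and by 2 cycles for the control sample of VEGFA.

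The positive PCR control, which was run in 3 wells per sample, gives the spread between wells of one assay. Its SD was 0.359 cycles in the raw column named for control and 0.482 in the other (n = 3 wells each), so that the difference between a single well of each sample has an SD of 0.601 cycles if wells are taken as independent. Matched by position on the plate, the 3 differences had an SD of 0.196. The change of LOXL1 relative to the reference genes, 0.19, was below both values. That of TFPI2, 0.66, was above both, though only slightly above 0.601. TIMP2 at -0.32 lay between them in size, as did VEGFA at 0.33 in the normalized table, whereas the exchanged raw values put VEGFA, at 2.33, above both. TIMP3 was above both in size in each setting. The wells of the positive control had a Ct between 19.2 and 20.1, however, and the exchanged raw Ct of TIMP3 in control cells was 37.2. Their spread therefore does not cover a well as late as that. Both SDs leave out the spread that subtracting the mean of the reference genes adds to each change. The matched SD was chosen after the values were seen, and these wells do not hold the spread between cultures.

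The difference between the changes of a pair of these genes is free of the choice of reference genes. TIMP3 moved away from TIMP2 by 8.93 on the log2 scale, a 489-fold change of their ratio, and by at least 4.70 from the raw values with the columns exchanged and the ceiling applied. The changes of the 2 inhibitors were thus unequal. Between TFPI2 and TIMP2 the difference was 0.98, or 1.97-fold, in both tables. TFPI2 and LOXL1 lay 0.47 apart, and LOXL1 and TIMP2 0.51 apart. Among TIMP2, TFPI2, LOXL1 and VEGFA the order of the changes was TFPI2, VEGFA, LOXL1 and TIMP2 in the normalized table. Neighbours in this order were 0.33, 0.14 and 0.51 apart, each below 0.601. That SD and the matched SD of 0.196 are for a single gene, whereas a gap between 2 genes rests on 2 wells of each sample. Neither SD therefore measures the spread of such a gap. With raw values, VEGFA stood 1.67 above TFPI2 and 2.64 above TIMP2.

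**Figure D3:**
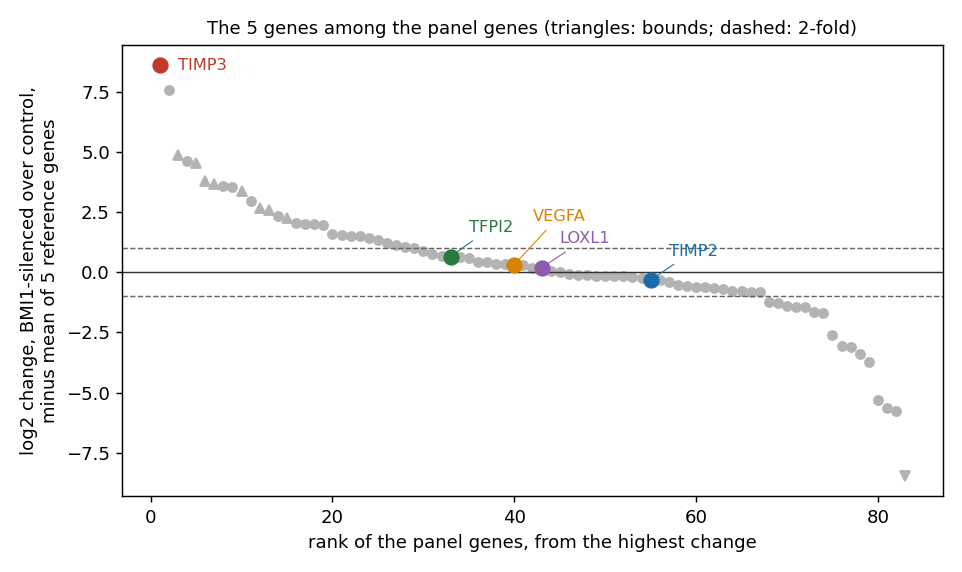
Log2 change of 83 genes of the array in BMI1-silenced over control cells, relative to the mean of 5 reference genes, in order from the highest; coloured points mark the 5 genes, triangles mark bounds, and dashed lines mark 2-fold. TIMP3 is at the top of the order at 8.62, and the other 4 lie in its middle, between 0.66 and -0.32.

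In that order TFPI2 was 33rd, VEGFA 40th, LOXL1 43rd and TIMP2 55th of 83. The span from TIMP2 to TFPI2 took in 23 of the 83 genes, and the quartiles of the array were -0.68 and 1.53. The gene nearest to TFPI2 on the higher side was SUPT7L, a subunit of a histone acetylating complex, at a log2 change of 0.66. VEGFA lay between NRIP1, a corepressor of nuclear receptors, at 0.35 and CAMKK1, a calcium-dependent kinase, at 0.31. LOXL1 lay between Cyclin A1 at 0.20 and CREB1, a transcription factor that responds to cyclic AMP, at 0.06. TIMP2 lay between RARB, a retinoic acid receptor, at -0.24 and PPP2R1B, a scaffold subunit of protein phosphatase 2A, at -0.33. Likeness here is the distance in a single log2 change between 2 samples, which many genes share.

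With each reference gene taken alone, TIMP3 stayed between 7.91 and 9.15. TIMP2 was past 2-fold with GAPDH alone, at -1.02, and TFPI2 was past 2-fold with HPRT1 alone, at 1.19. LOXL1 and VEGFA were within 2-fold with each reference gene, although both were lower with GAPDH alone, at -0.52 and -0.38. In the values as deposited, where nothing is subtracted, TIMP2, TFPI2, LOXL1 and VEGFA were all at least 2-fold lower.

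**Figure D4:**
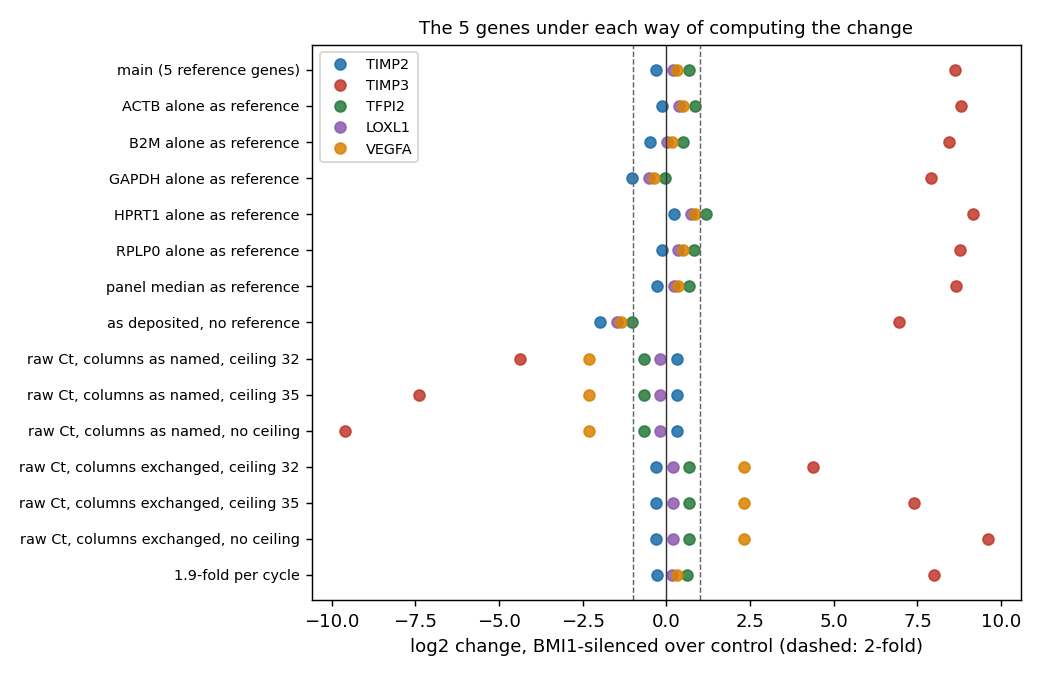
Log2 change of the 5 genes in BMI1-silenced over control cells under the main computation and each alternative, with dashed lines at 2-fold. TIMP3 lies right of 4 in each setting with the columns as in the normalized table or exchanged and left of -4 with the raw columns as named, TIMP2, TFPI2 and LOXL1 lie between -1.02 and 1.19 except without reference genes, and VEGFA lies at 2.33 only where exchanged raw Ct values are used.

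Other genes of the array code for proteins that are secreted into the same space, and 10 of them were listed beside the 5. Of these 10, 6 were at least 2-fold higher in BMI1-silenced cells, 3 were at least 2-fold lower and 1 was within 2-fold. With the 5 genes included, 7 of 15 were higher, or 46.7% beside 34.9% of the array, and 3 were lower, or 20% beside 19.3%, with a median log2 change of 0.66 against 0.20 for the array. TIMP3 was the single matrix gene among the 7.

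A pair of ligands and a binding protein were lower. IL6, an inflammatory cytokine, went from a normalized value of 58.5 to 2.12, a log2 change of -3.11. IGFBP5, which binds insulin-like growth factors in the matrix, went from 14.3 to 0.73, a log2 change of -2.62, and its ligand IGF1 went from 4.81 to 0.558, a log2 change of -1.43. GNRH1, the precursor of a hypothalamic hormone, was within 2-fold at 0.44. VEGFA, also a ligand, was not among the lower genes on this scale.

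DKK3 and the Wnt antagonist SFRP1 were higher. DKK3 went from 0.107 to 0.262, a log2 change of 2.97, and SFRP1, for which control cells were at the ceiling, stood at 2.25 or more. GPX3, a secreted glutathione peroxidase, went from 0.157 to 0.58, a log2 change of 3.56. SHBG, which binds sex hormones, stood at 3.40 or more and LGALS4, a lectin that binds galactosides, at 4.89 or more, each at the ceiling in control cells. All of these were at or near the ceiling in control cells, with a Ct between 30.3 and 32. None of TIMP2, TFPI2, LOXL1 and VEGFA was near it, their Ct being 25.2 or lower in both samples.

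**Figure D5:**
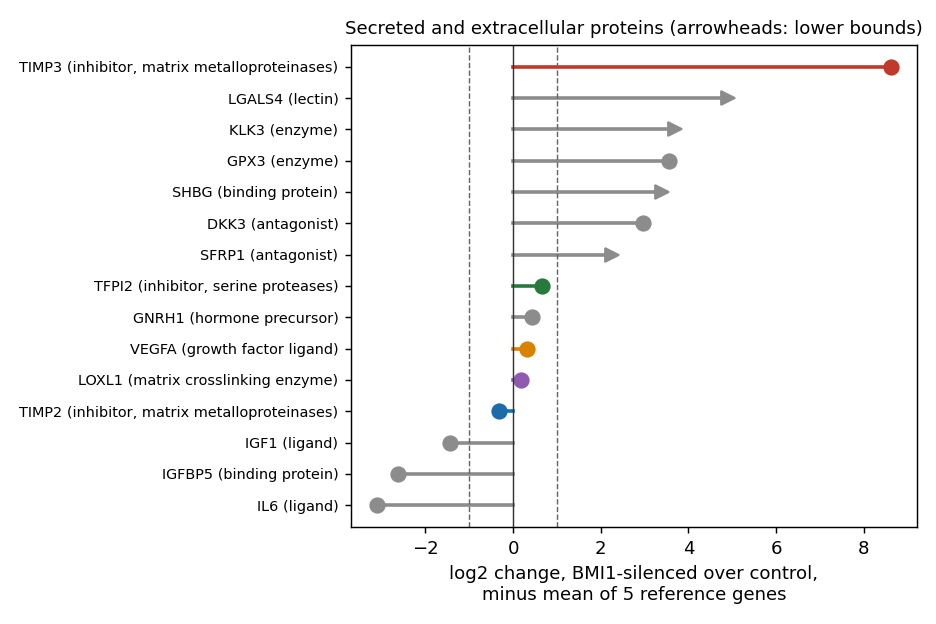
Log2 change of 15 genes for secreted and extracellular proteins in BMI1-silenced over control cells, relative to 5 reference genes, with the role of each; coloured bars are the 5 matrix genes, arrowheads are lower bounds and dashed lines mark 2-fold. TIMP3 is at the top, IL6 is at the bottom at -3.11, and TIMP2, LOXL1, VEGFA and TFPI2 lie within 2-fold.

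The identity of the cells was checked on markers of luminal prostate epithelium. KLK3, which codes for prostate-specific antigen and is abundant in LNCaP cells, reached the ceiling, Ct 32, in control cells. Its raw Ct there was 34.2 with the columns exchanged. In silenced cells KLK3 had a Ct of 29.7. The Ct of TMPRSS2, a membrane protease, was 28.1 in control and 28.0 in silenced cells. KLK3 thus came at a late Ct in both samples, against what the label of the cells would have it be. Its part in the results of the 5 genes was not tested.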

How the data were processed

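Values for 96 wells of a SYBR Green qPCR array were analysed, of which 84 held genes, 5 reference genes and 7 controls, in 1 control and 1 BMI1-silenced sample of LNCaP cells. The authors deposited raw Ct values and normalized values (2^-Delta Ct, a ratio of each gene to a reference Ct of the sample), made with the vendor's array software, in which a Ct above 32 had been set to 32. Threshold and reference genes are not given in the sources used here. Another deposited table holds the authors' own fold change, BMI1-silenced over control, and only its header was used.

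The log2 ratio of the normalized values, BMI1-silenced over control, was taken per gene, minus its mean over 5 reference genes. Where 1 sample was at the ceiling the change is a bound, and leaving out 1 gene with both samples there gives 83 genes. Genes were counted at 2-fold, the cut-off of the study. The Ct behind a normalized value is the median over wells of raw Ct plus log2 normalized value, with the raw columns exchanged, minus log2 of that value. It was called equal to the raw Ct within 0.001 cycles. With the columns exchanged 76 wells matched, and 6 genes, TIMP3 and VEGFA among them, went with another Ct than the raw table after the ceiling. Arrays of this kind give no counts, and the number of samples limits the precision.

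The genes and lists were chosen with earlier results of these data known. The genes named are the 5, the reference genes, the secreted proteins list, the nearest gene in log2 change on either side of each of the 5 and markers of luminal prostate cells. Certain genes are not reported here. Symbols were matched from accessions through RefSeq (GRCh38.p14), which gave 88 of 89, and Cyclin A1 kept its description. Promoter stretches came from the same release. Alternatives were each reference gene alone, the panel median, no reference, raw Ct as named or exchanged at a ceiling of 32, 35 or none, 1.9-fold amplification per cycle, thresholds of 4-fold and 1.5-fold, and a filter at Ct 30. The script was tested on simulated data. Python 3.11.15, numpy 2.4.6 and matplotlib 3.10.9 were used.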

Additional observations from a re-analysis of the deposited data

How the results depend on the processing

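No paired analysis was possible because there is only 1 sample on each side. A log2 value was held to have moved when it shifted by 0.47 or more, the SD of the reference genes, and a median when it shifted by 0.1 or more. With ACTB, B2M or RPLP0 alone or the panel median as the reference, none of the 5 genes moved. With GAPDH alone the log2 changes were -1.02 for TIMP2, 7.91 for TIMP3, -0.047 for TFPI2, -0.52 for LOXL1 and -0.38 for VEGFA, with 1 gene lower against 0. With HPRT1 alone they were 0.22, 9.15, 1.19, 0.72 and 0.86, with 2 genes higher against 1. As deposited they were -2.00, 6.94, -1.02, -1.49 and -1.35, with 4 genes lower, and 8 of 15 secreted proteins lower against 3. By construction, each of these settings adds a constant to all log2 changes. Under the names of its own columns, the raw table gave 0.32 for TIMP2, -0.66 for TFPI2 and -2.33 for VEGFA at all 3 ceilings, and -4.39 (ceiling of 32), -7.39 (35) and -9.62 (none) for TIMP3, with 0 genes higher and 2 lower, and 3 secreted proteins higher and 8 lower. With the columns exchanged TIMP3 was 4.39, 7.39 and 9.62, VEGFA was 2.33 and 2 genes were higher. At 1.9-fold amplification per cycle TIMP3 was 7.98, and at a threshold of 1.5-fold 2 genes were higher. The median of the secreted proteins, 0.66, was 0.84 with ACTB, 0.49 with B2M, -0.047 with GAPDH, 1.19 with HPRT1, 0.83 with RPLP0, -1.02 as deposited, 0.55 with the filter at Ct 30, -2.25, -2.33 and -2.33 with raw columns as named and 2.25, 2.33 and 2.33 with them exchanged, at ceilings of 32, 35 and none. Late Ct values limit TIMP3 in control cells, and no setting shows the spread between cultures.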

Other observations

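The following genes were chosen after their values were seen. CAV1, the main coat protein of caveolae, had a Ct of 20.4 in control and 22.6 in silenced cells, and GSTP1, a glutathione transferase, had a Ct of 20.8 and 22.3. CAV1 is known to be low and GSTP1 to be silenced by promoter methylation in LNCaP cells, whereas both were measured here at early cycles in both samples, and KLK3, which LNCaP cells are known to express, came at Ct 32 and 29.7. The cause of this was not tested.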
